A study of Mus musculus with 18 samples.

Results

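The genes that make, load and recapture the monoamines were followed in the brain of *Fmr1*CRE and wild-type mice. They are *Th*, *Ddc*, *Slc6a3*, *Slc6a2*, *Dbh*, *Tph2*, *Slc6a4*, *Slc18a2*, *Fev* and *Pitx3*, 10 of the 53468 genes in the table of gene counts. They were chosen by symbol from the mouse GENCODE annotation of release M21 and not by their values. *Fmr1*CRE mice carry a single base change that was knocked in with CRISPR/Cas9 in a regulatory element of *Fmr1*, on a C57BL/6 background, and more than 1 line was made. The labels do not give the line of these animals. Forebrain, midbrain and hindbrain were dissected at postnatal day 25 and their poly(A) RNA sequenced, for 3 *Fmr1*CRE mice and for 3 wild-type littermates. Each of the 6 mice gave 1 library per region, which makes 18 libraries and 3 libraries in each group of region and genotype.

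Dopamine, noradrenaline and serotonin are made by small groups of neurons whose cell bodies lie mainly, but for dopamine not only, in the brain stem and whose axons reach most of the brain. Dopamine neurons sit mainly in the ventral midbrain, noradrenaline neurons in the locus coeruleus and medulla, and serotonin neurons in the raphe nuclei, which run across the border of midbrain and hindbrain. The messenger RNA of these genes is found largely in the cell bodies, so that a piece of tissue holds it according to the cell bodies it includes.

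Total counts per library lay between 22455512 and 28061185. Forebrain markers summed to between 481 and 769 CPM, a count scaled to the total of its library, in forebrain and to at most 96.4 in hindbrain, and hindbrain markers to between 281 and 615 CPM in hindbrain and to at most 16.7 in forebrain. Midbrain markers summed to between 70.4 and 146 CPM in midbrain and to at most 46.6 elsewhere. The midbrain libraries also held markers of both neighbours. Forebrain markers summed there to between 219 and 391 CPM and hindbrain markers to between 93.2 and 192 CPM. Their part in the midbrain levels of the 10 genes was not tested. Between the 2 forebrain libraries of replicate number 3, more genes went against the difference seen in the other regions than with it. Of 22 genes that differed by at least 3 on the log2 scale, in 1 direction in both midbrain and hindbrain when the 2 mice of this number were set against each other, 11 differed as much in the opposite direction in forebrain and 2 in the same direction. For replicate number 1 these numbers were 2 and 10 of 20 genes, and for number 2 they were 5 and 5 of 17. At a limit of 2 on the log2 scale, 17 of 53 genes went the opposite way and 8 the same way for number 3, against 9 and 16 of 53 for number 1 and 8 and 11 of 54 for number 2. The reason was not tested, nor whether a label is wrong. The comparisons with forebrain, the interaction and the genotypes in forebrain were also computed without both libraries, and the sums per mouse without both mice of this number. Libraries are named by the columns of the table of gene counts. The transcript estimates of only 2 of the 18 libraries were attached to the record of the library whose gene counts they reproduce, and they are used here by that match. Whether the columns or these records are right was not tested. The genotype and mouse given for every library here rest on the columns.

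Of the 10 genes, 9 were matched by symbol to the RefSeq promoters of GRCm38.p6, and *Ddc* had 2. The windows run from 250 bases before to 50 bases after the annotated start. The *Th* window (chr7:142899946-142900245, minus strand) and the *Slc18a2* window (chr19:59260628-59260927, plus strand) are shown because both hold the cyclic AMP response element TGACGTCA, in capitals with any other match, at positions -45 to -38 of *Th* and -4 to 3 of *Slc18a2*, where -1 is the base just before the start.
Th: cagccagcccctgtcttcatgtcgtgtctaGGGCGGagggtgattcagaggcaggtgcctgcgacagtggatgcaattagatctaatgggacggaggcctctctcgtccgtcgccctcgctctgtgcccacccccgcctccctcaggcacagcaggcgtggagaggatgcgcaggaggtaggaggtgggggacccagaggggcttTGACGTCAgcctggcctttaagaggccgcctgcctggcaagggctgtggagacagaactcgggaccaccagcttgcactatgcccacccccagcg
Slc18a2: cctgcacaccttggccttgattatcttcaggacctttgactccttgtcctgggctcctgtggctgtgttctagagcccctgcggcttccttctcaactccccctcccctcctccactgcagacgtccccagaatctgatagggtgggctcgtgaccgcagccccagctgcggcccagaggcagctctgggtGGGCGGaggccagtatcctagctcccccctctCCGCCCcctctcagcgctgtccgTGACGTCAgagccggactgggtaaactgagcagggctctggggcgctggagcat
This element was found in 1.79% of all 32851 promoters. The *Dbh* window (chr2:27165257-27165556, plus strand) is shown for AATNNNATT, the core of a homeodomain motif bound by PHOX2A, which it holds at positions -92 to -84 and -71 to -63, and which 6.87% of all promoters hold.
Dbh: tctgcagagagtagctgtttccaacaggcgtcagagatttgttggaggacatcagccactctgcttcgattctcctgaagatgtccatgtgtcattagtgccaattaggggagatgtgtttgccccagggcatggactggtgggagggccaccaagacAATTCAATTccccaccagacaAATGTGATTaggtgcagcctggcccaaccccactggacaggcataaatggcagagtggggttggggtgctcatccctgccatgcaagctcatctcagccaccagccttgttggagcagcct
The *Tph2* window (chr10:115184973-115185272, minus strand) holds a TATA box (TATAAA) at positions -30 to -25, as 13.6% of promoters hold it somewhere on either strand.
Tph2: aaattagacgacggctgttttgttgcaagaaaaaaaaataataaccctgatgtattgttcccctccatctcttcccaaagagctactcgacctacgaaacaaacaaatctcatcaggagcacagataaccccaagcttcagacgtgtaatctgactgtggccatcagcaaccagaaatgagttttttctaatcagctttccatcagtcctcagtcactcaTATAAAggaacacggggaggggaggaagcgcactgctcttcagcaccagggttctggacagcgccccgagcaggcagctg
The 2 *Ddc* windows (chr11:11898095-11898394 and chr11:11890359-11890658, both on the minus strand) are shown because the annotation gives this gene 2 starts.
Ddc upstream: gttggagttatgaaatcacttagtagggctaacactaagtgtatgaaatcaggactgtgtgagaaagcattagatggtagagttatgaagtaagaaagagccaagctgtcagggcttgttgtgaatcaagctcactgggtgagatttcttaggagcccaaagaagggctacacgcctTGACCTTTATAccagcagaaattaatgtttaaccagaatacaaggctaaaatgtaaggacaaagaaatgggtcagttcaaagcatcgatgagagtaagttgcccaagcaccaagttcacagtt
Ddc downstream: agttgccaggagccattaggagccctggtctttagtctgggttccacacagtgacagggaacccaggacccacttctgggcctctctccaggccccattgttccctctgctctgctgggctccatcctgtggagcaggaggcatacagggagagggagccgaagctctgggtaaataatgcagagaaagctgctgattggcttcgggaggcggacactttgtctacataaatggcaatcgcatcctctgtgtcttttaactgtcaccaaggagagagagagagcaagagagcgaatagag
The upstream window holds AAAGGTCA, a site bound by NR4A2, on its other strand at positions -73 to -66, found in 1.51% of promoters, and a TATA box on the same strand that overlaps it at -68 to -63. The downstream window held none of the 7 motifs searched. The GC box (GGGCGG) was in 6 of the 10 windows, among them all of the windows of *Slc6a3*, *Slc6a4*, *Fev* and *Pitx3*, against 35.7% of all promoters. The ETS core CGGAAG, in 16.9% of promoters, and GGATTA, bound by bicoid-type homeodomain factors, in 7.06%, were in 0 of the 10. All motifs were searched on both strands, and a match is only a match of letters.

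Levels are given as CPM after TMM normalization, in the order *Fmr1*CRE replicates 1, 2 and 3 and then wild-type replicates 1, 2 and 3. Regions were compared with edgeR's quasi-likelihood test over all 18 libraries and genotypes within a region over its 6 libraries, with Benjamini-Hochberg adjustment over all genes tested. In the comparison of midbrain with forebrain 10 of the 10 genes passed at an adjusted p under 0.05 and all 10 were higher in midbrain, where 19.3% of 20363 genes passed, 9.96% higher and 9.38% lower. Between hindbrain and forebrain 8 of 10 passed, 7 higher in hindbrain and 1 lower, against 51.7% of all genes, 25.3% higher and 26.4% lower. Between midbrain and hindbrain 7 of 10 passed, all higher in midbrain, against 49.1% of all genes, 25.1% higher and 24% lower. The median log2 fold change of the 10 genes was 4.36, 2.84 and 1.15 in these comparisons, beside -0.02, 0.01 and -0.03 over all genes tested. In bulk tissue, fewer cells of a type and less RNA per cell cannot be told apart.

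**Figure D1:**
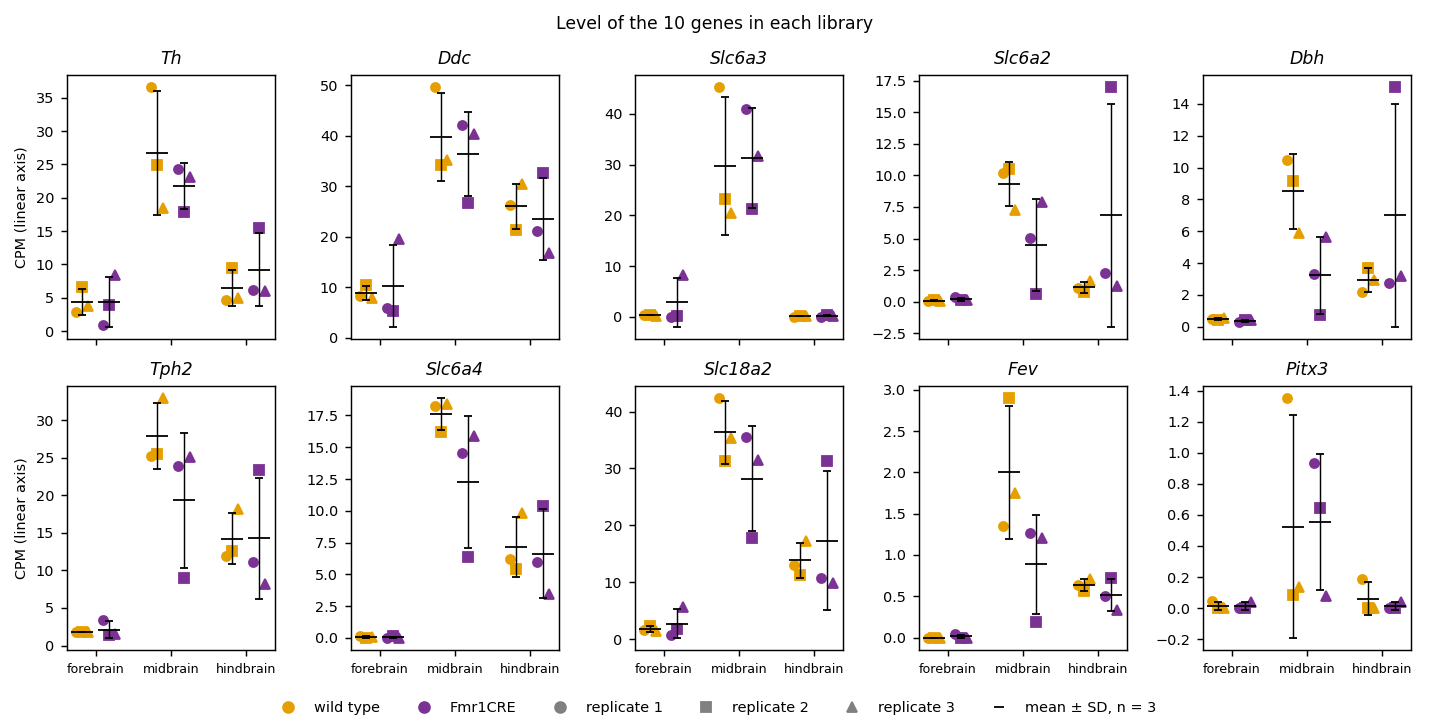
Level of each gene (CPM, linear axis) in the 18 libraries by region. Points are single libraries, colour gives the genotype and shape the replicate number, and bars are mean ± SD of 3 libraries. In wild-type mice the mean of all 10 genes is highest in midbrain, and in *Fmr1*CRE mice that of 8, with *Dbh* (7.01 against 3.23 CPM) and *Slc6a2* (6.85 against 4.49 CPM) higher in hindbrain. *Slc6a3* of *Fmr1*CRE replicate 3 stands apart in forebrain at 8.35 CPM, and *Dbh* and *Slc6a2* of *Fmr1*CRE replicate 2 stand apart in hindbrain at 15.1 and 17.0 CPM.

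*Th*, on chromosome 7 from 142892752 to 142931128 (GRCm38), encodes tyrosine hydroxylase, the rate-limiting enzyme for dopamine and noradrenaline. In midbrain its levels were 24.3, 17.8, 23.2, 36.7, 25 and 18.4 CPM. In hindbrain they were 6.11, 15.5, 6.07, 4.71, 9.51 and 4.94 CPM, and in forebrain 0.908, 3.91, 8.35, 2.91, 6.61 and 3.72 CPM. Every midbrain library was above every library of the other regions, and hindbrain and forebrain overlapped. The log2 fold change was 2.45 between midbrain and forebrain (SE 0.41, edgeR, adjusted p = 0.000568) and 1.65 between midbrain and hindbrain (SE 0.39, edgeR, adjusted p = 0.00245). Between hindbrain and forebrain it was 0.81 (SE 0.40, edgeR, adjusted p = 0.103), and 1.18 without both forebrain libraries of replicate number 3 (edgeR, adjusted p = 0.0318). With the reads summed over its transcripts in place of the deposited counts it was also 0.81 (edgeR, adjusted p = 0.0347). The forebrain counts of 23, 95, 196, 66, 164 and 95 stand beside 37, 142, 157, 76, 112 and 94 such reads. The mean effective length given to *Th* in these libraries ran from 777 to 1888 bases.

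*Slc6a3* (chromosome 13, 73536747 to 73578672) encodes the plasma membrane transporter that takes dopamine back into the neuron. In midbrain it stood at 41.0, 21.2, 31.7, 45.4, 23.3 and 20.6 CPM, with no overlap with the other regions. In hindbrain it lay between 0.0711 and 0.289 CPM, with a median of 0.178. The log2 fold change between midbrain and hindbrain was 7.48 (SE 0.87, edgeR, adjusted p = 4.14e-06). Forebrain held 0.0395, 0.124, 8.35, 0.440, 0.403 and 0.274 CPM, and a single library, *Fmr1*CRE replicate 3, stood far above the others. The log2 fold change between midbrain and forebrain was 4.89 (SE 0.72, edgeR, adjusted p = 0.000238). It was 7.41 without that library (edgeR, adjusted p = 2.28e-08) and 7.32 without both forebrain libraries of replicate number 3 (edgeR, adjusted p = 1.89e-07). The same library had the highest forebrain level of *Th*, *Ddc* and *Slc18a2* and of the nicotinic receptor subunit *Chrna6*, at 2.00 CPM against 0.124 to 0.572 CPM in the others. Its sum of 7 midbrain markers was 46.6 CPM, also the highest in forebrain, where the others lay between 15.4 and 36.3 CPM, and the part of this in the result was not tested. A list of 7 hypothalamic genes varied in forebrain as well, with sums of 4.42, 9.63 and 58.7 CPM in *Fmr1*CRE mice and of 79.0, 93.1 and 46.0 CPM in wild-type mice. Its part in the forebrain levels of *Th*, *Ddc* and *Slc18a2* was not tested. *Slc6a3* was lower in hindbrain than in forebrain, close to the threshold, with a log2 fold change of -2.59 (SE 1.05, edgeR, adjusted p = 0.0481). With each library left out in turn the adjusted p was above 0.05 in 14 of 18 fits, and with the mouse as a block the value was -2.36 (edgeR, adjusted p = 0.0542). It was -0.17 without both forebrain libraries of replicate number 3 (edgeR, adjusted p = 0.866) and -0.07 without the *Fmr1*CRE one (edgeR, adjusted p = 0.942).

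*Pitx3*, a homeodomain factor of dopamine neurons (chromosome 19, 46135685 to 46148326), was near the limit of detection. Its deposited midbrain counts were 23, 17, 2, 31, 2 and 4, an uneven series for 6 mice. The reads that the transcript estimates assign to it were 8, 11, 4, 8, 4 and 6, so that all 6 midbrain libraries held between 4 and 11. The deposited counts are scaled by transcript length, and the mean effective length given to *Pitx3* ran from 305 to 1905 bases in these libraries, with the highest counts at the shortest lengths. Over a region there were 41 reads in midbrain, 2 in hindbrain and 3 in forebrain. The ratio of midbrain to forebrain was 13.7 with an exact 95% interval of 4.36 to 69, and that of midbrain to hindbrain 20.7 with an interval of 5.37 to 176. These intervals cover counting error only. *Elovl3* lies on the other strand over part of *Pitx3*, but of the 1495 stretches of 31 bases in the *Pitx3* transcripts 0% occur in transcripts of another gene, read on either strand. Antisense genes overlap *Ddc*, *Slc6a4* and *Slc18a2* in the same way, and share 0%, 0% and 1.51% of such stretches with them.

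**Figure D2:**
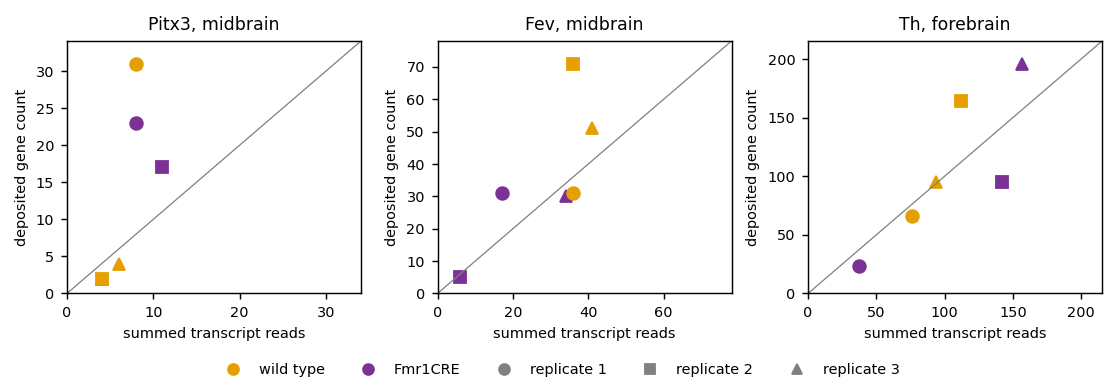
Deposited gene count (vertical axis) against the reads summed over the transcripts of the gene (horizontal axis) in 6 libraries each of *Pitx3* in midbrain, *Fev* in midbrain and *Th* in forebrain. Colour gives the genotype and shape the replicate number, and the line marks equal values. The *Pitx3* counts of 31, 23 and 17 rest on 8, 8 and 11 reads, and the points of wild-type replicate 2 and *Fmr1*CRE replicate 3 coincide at 4 reads.

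*Dbh* and *Slc6a2* are the noradrenaline pair, the first encoding the enzyme that turns dopamine into noradrenaline and the second the transporter that takes noradrenaline back up. *Dbh* (chromosome 2, 27165233 to 27183200) stood at 3.30, 0.759, 5.62, 10.5, 9.14 and 5.89 CPM in midbrain. In hindbrain it stood at 2.74, 15.1, 3.20, 2.19, 3.66 and 2.97 CPM, and in forebrain between 0.316 and 0.548 CPM. *Fmr1*CRE replicate 2 thus had the lowest midbrain level and the highest hindbrain level of the 6 mice. *Slc6a2* (chromosome 8, 92960079 to 93001667) had the same outlying mouse, with midbrain levels of 5.01, 0.607, 7.87, 10.2, 10.5 and 7.30 CPM. Its hindbrain levels were 2.31, 17.0, 1.22, 1.08, 0.759 and 1.62 CPM, and its forebrain levels at most 0.355 CPM. In that mouse hindbrain held 95.2% of the midbrain and hindbrain CPM of *Dbh* and 96.6% of those of *Slc6a2*. In the other 5 mice the shares were from 17.3% to 45.3% and from 6.75% to 31.6%.

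The difference of the noradrenaline genes between midbrain and hindbrain turned on that mouse. Over all libraries the log2 fold change of *Dbh* was 0.20 (SE 0.42, edgeR, adjusted p = 0.722) and that of *Slc6a2* 1.20 (SE 0.57, edgeR, adjusted p = 0.0924). Leaving out the midbrain and hindbrain libraries of *Fmr1*CRE replicate 2 was decided after seeing these data, so that fit is no independent test. Without them the values were 1.07 (edgeR, adjusted p = 0.00081) and 2.45 (edgeR, adjusted p = 1.22e-05). With wild-type libraries only they were 1.51 (edgeR, adjusted p = 0.00153) and 3.01 (edgeR, adjusted p = 5.56e-05), both higher in midbrain. Against forebrain the 2 genes were higher in both other regions with and without that mouse. The log2 fold change of *Dbh* was 3.57 (SE 0.51) in midbrain and 3.37 (SE 0.51) in hindbrain, and that of *Slc6a2* was 5.48 (SE 0.78) and 4.28 (SE 0.79), with the adjusted p from edgeR at most 0.000271. Without the hindbrain library of that mouse the hindbrain values were 2.75 for *Dbh* and 3.30 for *Slc6a2* (edgeR, adjusted p at most 0.000259).

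*Tph2*, *Slc6a4* and *Fev* are the serotonin genes: the neuronal tryptophan hydroxylase that limits serotonin synthesis, the serotonin transporter, and an ETS factor found in serotonin neurons. *Tph2* (chromosome 10, 115078641 to 115185022) stood at 23.9, 8.95, 25.1, 25.2, 25.5 and 32.9 CPM in midbrain and at 11.1, 23.4, 8.21, 12, 12.6 and 18.1 CPM in hindbrain. *Slc6a4* (chromosome 11, 76998603 to 77032340) stood at 14.6, 6.33, 15.9, 18.3, 16.2 and 18.4 CPM in midbrain and at 6.01, 10.4, 3.45, 6.23, 5.41 and 9.85 CPM in hindbrain. *Fmr1*CRE replicate 2 was again the lowest in midbrain and the highest in hindbrain for both. *Fev* (chromosome 1, 74881509 to 74885419) lay between 0.190 and 2.90 CPM in midbrain, with a median of 1.31, and between 0.337 and 0.722 CPM in hindbrain, with a median of 0.596. Forebrain levels were from 1.36 to 3.44 CPM for *Tph2* and at most 0.132 CPM for *Slc6a4*. For *Fev* the forebrain held 1 read in 6 libraries, against 170 in midbrain and 103 in hindbrain, a ratio of 170 (exact 95% interval 30.1 to 6753) and of 102 (17.9 to 4076). Both intervals cover counting error only. *Slc6a4* had no forebrain count in 3 of 6 libraries and 7 counts in all, while *Tph2* had 33 to 87 counts in each.

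Against forebrain the log2 fold change of *Tph2* was 3.57 in midbrain and 2.86 in hindbrain, and that of *Slc6a4* was 8.13 and 7.04 (edgeR, adjusted p at most 2.34e-06), the latter resting on those 7 forebrain counts. All 3 serotonin genes were higher in midbrain than in hindbrain. The log2 fold change was 0.70 for *Tph2* (SE 0.28, edgeR, adjusted p = 0.049), 1.09 for *Slc6a4* (SE 0.30, edgeR, adjusted p = 0.00707) and 1.20 for *Fev* (SE 0.40, edgeR, adjusted p = 0.0218). The call for *Tph2* lies at the threshold: with each library left out in turn its adjusted p went above 0.05 in 12 of 18 fits, up to 0.123, and with the mouse as a block it was 0.0676 (log2 fold change 0.72). With summed transcript reads in place of the deposited counts *Fev* had a log2 fold change of 0.70 (edgeR, adjusted p = 0.106). With each library left out in turn the adjusted p reached 0.0625 for *Fev* and 0.022 for *Slc6a4* (edgeR). With *Fmr1*CRE libraries only none of the 3 genes passed. *Tph2* was then at 0.41, *Slc6a4* at 0.86 and *Fev* at 0.72 (edgeR, adjusted p = 0.582, 0.229 and 0.452). With wild-type libraries only all 3 passed. Without midbrain and hindbrain of *Fmr1*CRE replicate 2 the values of *Tph2*, *Slc6a4* and *Fev* were 1.17, 1.50 and 1.61 (edgeR, adjusted p at most 0.00147). That fit was chosen after seeing these data and is no independent test.

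*Ddc* and *Slc18a2* serve all of these neurons, as the decarboxylase that makes dopamine and serotonin and as the carrier that loads monoamines into vesicles. *Ddc* (chromosome 11, 11814101 to 11898144) stood at 42.0, 26.7, 40.3, 49.7, 34.2 and 35.2 CPM in midbrain and 21.1, 32.5, 16.7, 26.3, 21.3 and 30.3 CPM in hindbrain. Forebrain held 5.81, 5.35, 19.6, 8.23, 10.4 and 7.79 CPM. Its midbrain and hindbrain levels overlapped, and the log2 fold change of 0.62 missed the threshold (SE 0.27, edgeR, adjusted p = 0.067). It passed in 5 of the 18 fits with a library left out (edgeR, adjusted p from 0.00634 to 0.149). It also passed with DESeq2 (0.61, adjusted p = 0.0484), with no filter (0.65, edgeR, adjusted p = 0.0373), with summed transcript reads (0.56, edgeR, adjusted p = 0.0253), with wild-type libraries only (0.60, edgeR, adjusted p = 0.0277), and without both forebrain libraries of number 3 or without midbrain and hindbrain of *Fmr1*CRE replicate 2 (edgeR, adjusted p = 0.00805 and 0.0208). The fits with summed transcript reads and without *Fmr1*CRE replicate 2 were chosen after seeing these data. *Ddc* did not pass with the mouse as a block, with DESeq2 size factors, with at least 10 counts in every library or with *Fmr1*CRE libraries only. Over all settings its adjusted p reached 0.366 (edgeR). *Slc18a2* (chromosome 19, 59260896 to 59296012) stood at 35.5, 17.8, 31.4, 42.4, 31.4 and 35.3 CPM in midbrain, at 10.7, 31.4, 9.81, 12.9, 11.3 and 17.2 CPM in hindbrain and at 0.671, 1.85, 5.62, 1.63, 2.30 and 1.41 CPM in forebrain. It was higher in midbrain than in hindbrain by 1.05 (log2; SE 0.36, edgeR, adjusted p = 0.0229), and the regions overlapped by the libraries of *Fmr1*CRE replicate 2. The adjusted p was 0.0584, 0.0570 and 0.0502 (edgeR) without *Fmr1*CRE hindbrain replicate 1, hindbrain replicate 3 and midbrain replicate 1, and with *Fmr1*CRE libraries only the value was 0.68 (edgeR, adjusted p = 0.459). Against forebrain both genes were higher, *Ddc* by 2.00 in midbrain and 1.38 in hindbrain and *Slc18a2* by 3.87 and 2.82 (log2; edgeR, adjusted p at most 0.000632). Of the estimated reads of *Ddc*, pooled over all libraries, 51.9% were given to a transcript that starts at 11898044, near the upstream window. A transcript that starts at 11898144, within that window, was given 0%. Transcripts that start within the downstream window were given 16.3% (start at 11890408), 15.2% (11890369), 0.942% (11890401) and 0.161% (11890398). These shares are estimates from 50-base single-end reads over transcripts that share most exons, and they are not read as use of either start.

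Taking the 10 genes together, *Fmr1*CRE replicate 2 was the lowest of the 6 mice in midbrain for 8 of them and the highest in hindbrain for 9. The exceptions were *Slc6a3* and *Pitx3* in midbrain and *Pitx3* in hindbrain. Without its midbrain and hindbrain libraries, a fit chosen after seeing the data, 10 of 10 genes were higher in midbrain than in hindbrain at an adjusted p under 0.05 (edgeR), where 23.8% of 20841 genes were. In the same mouse the midbrain marker list was at its lowest in midbrain, 70.4 CPM against 77.7 to 146 CPM in the others, and at its highest in hindbrain, 37.1 CPM against 20.8 to 27.0 CPM. The hindbrain list was at its lowest in hindbrain, 281 CPM against 326 to 615 CPM, and stood at 191 CPM in midbrain, which wild-type replicates 2 and 3 also reached with 192 and 191 CPM. Their part in the levels of these genes was not tested.

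**Figure D3:**
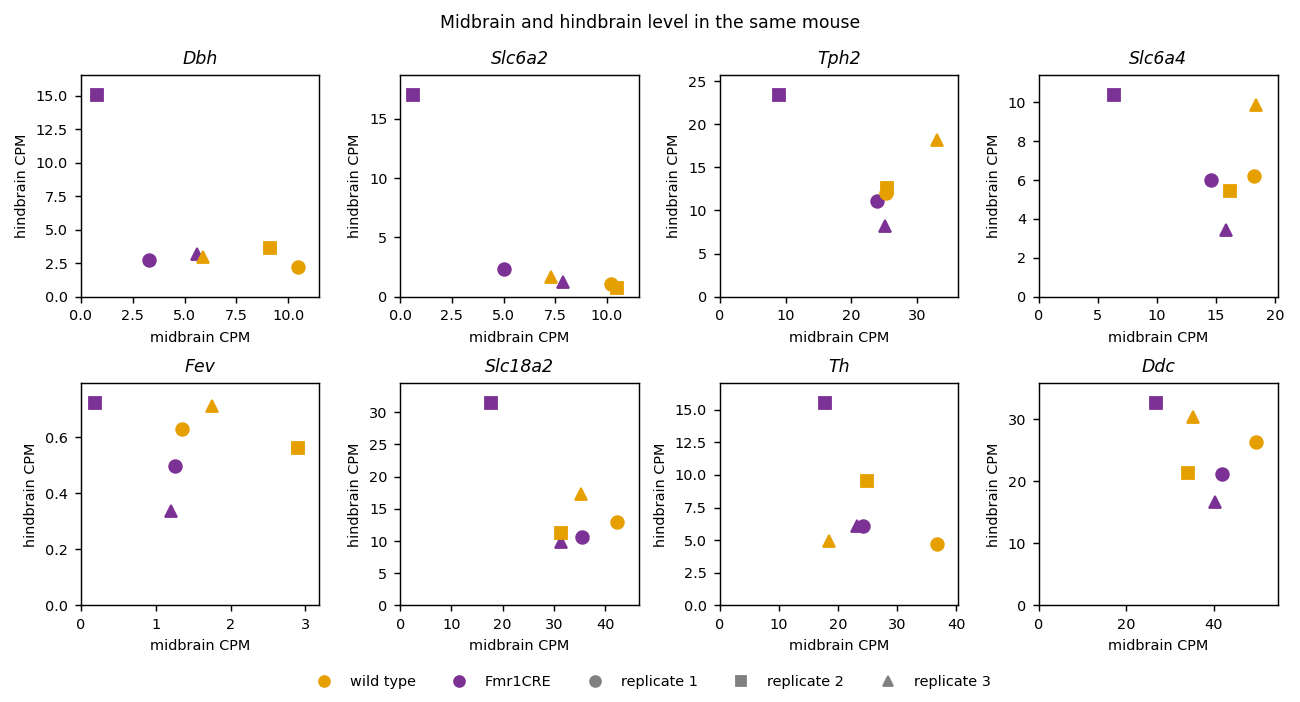
Hindbrain level (vertical axis, CPM) against midbrain level (horizontal axis, CPM) of the same mouse for 8 of the genes. Each point is 1 mouse, with colour for the genotype and shape for the replicate number. The purple square, *Fmr1*CRE replicate 2, lies at the upper left for *Dbh*, *Slc6a2*, *Tph2*, *Slc6a4*, *Slc18a2*, *Th*, *Ddc* and *Fev*.

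Over the 6 mice, the midbrain and hindbrain levels of the same mouse were compared for 7 genes. Pearson's r was below 0 for all 7, from -0.88 for *Dbh* to -0.27 for *Fev*, and none passed an exact permutation test (smallest p = 0.0819, adjusted over the 7 genes p = 0.433). For *Dbh* Spearman's rho was -0.49 (exact permutation test, p = 0.356, adjusted p = 0.979). Without the 2 mice farthest from the median midbrain level the r of *Dbh* was 0.94, so that its negative relation rested on those mice.

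Within a region, each pair of genes was compared over the 6 mice, 73 pairs in all. In midbrain 40 of 45 pairs and in hindbrain 28 of 28 had a Pearson's r above 0, with 11 and 10 at an unadjusted p under 0.05 from an exact permutation test and 0 and 0 after adjustment. The pair *Tph2* and *Slc6a4* had an r of 0.98 in midbrain (rho = 0.94; exact permutation test, p = 0.00417, adjusted p = 0.0608; for rho p = 0.0167, adjusted p = 0.111) and of 0.96 in hindbrain (rho = 0.83; exact permutation test, p = 0.00833, adjusted p = 0.0608; for rho p = 0.0583, adjusted p = 0.25). Without the 2 libraries farthest from the median of *Tph2* the r was 0.70 and 0.91. *Slc6a2* and *Dbh* had an r of 0.98 in midbrain (rho = 0.89; exact permutation test, p = 0.00556, adjusted p = 0.0608; for rho p = 0.0333, adjusted p = 0.187), and 0.94 without the 2 farthest libraries. In hindbrain this pair had an r of 0.89 and a rho of 0.20 (exact permutation test, adjusted p = 0.241 and 0.854), and an r of 0.29 without the 2 farthest libraries. *Slc6a2* and *Slc6a4*, of different transmitters, also had an r of 0.98 in midbrain (exact permutation test, adjusted p = 0.13), and -0.13 without the 2 farthest. With summed transcript reads 4 midbrain pairs and 5 hindbrain pairs had an adjusted p under 0.05 (exact permutation test), *Tph2* with *Slc6a4* among them in both regions and *Slc6a2* with *Dbh* in midbrain. The other midbrain pairs that passed were *Dbh* with *Fev* (r = 0.98) and *Slc6a2* with *Fev* (r = 0.97), each a noradrenaline gene with a serotonin gene. By rho none of these pairs passed (exact permutation test, smallest adjusted p = 0.0676).

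Ratios of genes within a library were compared between regions over the 6 mice, which leaves out depth. The log2 ratio of *Slc6a4* to *Tph2* was -0.64 ± 0.14 (SD, n = 6) in midbrain and -1.06 ± 0.17 (SD, n = 6) in hindbrain, higher in midbrain in 6 of 6 mice by 0.42 on average. *Ddc* to *Th* was 0.67 ± 0.20 (SD, n = 6) in midbrain and 1.76 ± 0.66 (SD, n = 6) in hindbrain, so that hindbrain held more *Ddc* for its *Th* in 6 of 6 mice. *Slc18a2* to *Ddc* was -0.26 ± 0.20 (SD, n = 6) in midbrain, -0.76 ± 0.36 (SD, n = 6) in hindbrain and -2.22 ± 0.54 (SD, n = 6) in forebrain. Forebrain had least *Slc18a2* for its *Ddc*, in 6 of 6 mice against either region. These 4 differences each reached 0.03125, the smallest p that the two-sided exact sign-flip permutation test over 6 mice allows, and an adjusted p of 0.0625 over the 8 differences tested. In an unpaired exact permutation test of 6 against 6 libraries, with no block for the mouse, 6 of the 8 had an adjusted p under 0.05. That test ignores that the regions came from the same mice, so no conclusion is drawn from it. *Slc6a2* to *Dbh* was 1.13 higher (log2) in midbrain than in hindbrain, in 5 of 6 mice (exact sign-flip permutation test, p = 0.0625, adjusted p = 0.1).

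Divided by the effective length of the gene, the order of the mean levels in midbrain was *Ddc*, *Th*, *Tph2*, *Slc18a2*, *Slc6a3*, *Slc6a4*, *Dbh*, *Slc6a2*, *Fev* and *Pitx3*. The mean level ran from 35.7 ± 7.36 CPM per kb (SD, n = 6) for *Ddc* to 0.86 ± 0.848 CPM per kb (SD, n = 6) for *Pitx3*. Neighbours that did not differ by more than the larger SD of the 2 were *Tph2*, *Slc18a2* and *Slc6a3*, and *Dbh*, *Slc6a2*, *Fev* and *Pitx3*. Hindbrain had the same first 4 genes, with *Ddc* at 23.2 ± 5.68 CPM per kb (SD, n = 6) and clear of *Th* at 7.35 ± 3.89 CPM per kb (SD, n = 6), while *Slc6a3* was last at 0.0512 ± 0.0259 CPM per kb (SD, n = 6). In forebrain *Ddc* and *Th* led with 8.94 ± 4.93 and 4.15 ± 2.51 CPM per kb (SD, n = 6) and did not differ by more than their spread.

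**Figure D4:**
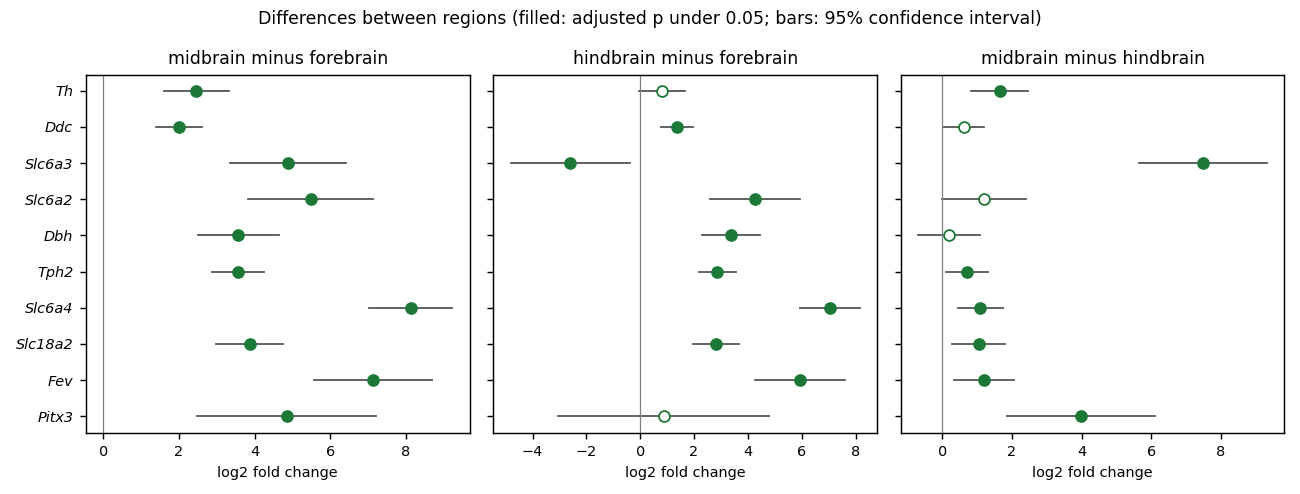
Log2 fold change of the 10 genes between regions (horizontal axis) from edgeR over 18 libraries. Filled points had an adjusted p under 0.05 and bars are 95% confidence intervals. All 10 points are filled for midbrain against forebrain, 8 for hindbrain against forebrain and 7 for midbrain against hindbrain, where *Slc6a3* has the largest value, 7.48. The fitted values of *Fev* and *Pitx3* rest on 1 and 2 forebrain counts and depend on the prior count.

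The second question is whether the genotype changed these genes. In forebrain 5 of the 10 passed the filter on low counts, in midbrain 10 and in hindbrain 8, and 0 of these passed at an adjusted p under 0.05. Of all genes, 0% passed for forebrain, 0.00543% for midbrain and 0% for hindbrain with edgeR, where 1002, 1135 and 981 genes had an unadjusted p under 0.05, 0, 1 and 1 of them among the 10. DESeq2 passed 31, 62 and 59 genes in these regions and 0 of the 10. With the 3 regions summed per mouse 0 of 10 passed with edgeR, against 0.00451% of all genes, and 2 of the 820 genes with an unadjusted p under 0.05 were among the 10 (DESeq2 passed 26 genes, 0 of them among the 10). For the interaction of genotype and region 0 of 10 passed, against 0% of all genes (1535 with an unadjusted p under 0.05, 2 of them among the 10; 52 genes with DESeq2, 0 of them among the 10).

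In midbrain the 3 *Fmr1*CRE libraries lay below all wild-type ones for *Dbh*, *Tph2*, *Slc6a4* and *Fev*, 4 of the 10 genes, and above them for none. Of all genes tested, 11.3% did not overlap between the genotypes, counted over both directions. The log2 fold change was -1.39 for *Dbh* (SE 0.58, 95% confidence interval -2.73 to -0.05, edgeR, adjusted p = 0.806) and -1.18 for *Fev* (SE 0.60, interval -2.57 to 0.22, edgeR, adjusted p = 0.813). For *Tph2* it was -0.53 (SE 0.35, edgeR, adjusted p = 0.844) and for *Slc6a4* -0.52 (SE 0.31, edgeR, adjusted p = 0.831). Part of the size came from *Fmr1*CRE replicate 2, without which the values were -0.93, -0.69, -0.19 and -0.21. *Slc6a3* and *Th* overlapped between the genotypes. *Slc6a3* had a log2 fold change of 0.08 (interval -0.70 to 0.86) and *Th* of -0.29 (interval -0.85 to 0.27). Hypothalamic markers also separated the genotypes in midbrain. The 7 genes of that list summed to 113, 76.5 and 39.0 CPM in *Fmr1*CRE mice and to 14.0, 3.14 and 2.67 CPM in wild-type mice, with *Pmch* at 59.0, 35.4 and 25.3 against 10.2, 0.490 and 0.240 CPM. At least 6 of the 7 had a count in every midbrain library. A list of 5 mast cell genes, a cell type that also makes serotonin, summed to 59.5, 80.7 and 65.6 CPM in *Fmr1*CRE mice and to 101, 93.1 and 101 CPM in wild-type mice. Nearly all of it was *Kit*, which neurons also express, while *Cpa3* was at most 0.281 CPM. The part of either list in the levels of the monoamine genes was not tested.

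In hindbrain none of the 10 separated the genotypes, against 10.9% of all genes tested, and in forebrain *Dbh* did, 1 of 5 tested, against 10.3%. The forebrain values rest on the labels of the 2 libraries of replicate number 3, 1 of each genotype. Without both, 0 of 5 passed, against 0% of all genes (edgeR; 2545 of 18763 genes had an unadjusted p under 0.05, 1 of them among the 5). Without them the log2 fold change went from 0.23 to -0.69 for *Ddc* (edgeR, adjusted p = 0.321) and from 0.61 to -0.60 for *Slc18a2* (edgeR, adjusted p = 0.643), and that of *Th* became -0.95 (edgeR, adjusted p = 0.584). In hindbrain *Slc6a2* was the 1 gene of the 10 with an unadjusted p under 0.05, and its log2 fold change was 2.56 (SE 0.92, edgeR, adjusted p = 0.875). It was 0.63 without *Fmr1*CRE replicate 2 (edgeR, adjusted p = 0.946), and that of *Dbh* went from 1.24 to 0.01. *Dbh* and *Slc6a2* thus lay on opposite sides of 0 in midbrain and hindbrain, and they were the 2 genes with an unadjusted p under 0.05 for the interaction of genotype and region (edgeR, adjusted p = 0.66 for both). Without both libraries of that mouse neither was under 0.05 before adjustment (edgeR, adjusted p = 0.839 for both).

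The counts of the 3 regions of a mouse were also summed. In these sums *Dbh* had a log2 fold change of -0.10 (SE 0.33, 95% confidence interval -0.86 to 0.65) and *Slc6a2* of 0.21 (interval -0.50 to 0.93). *Tph2* stood at -0.28 (interval -0.61 to 0.04), *Slc6a4* at -0.37 (interval -0.69 to -0.04, edgeR, adjusted p = 0.998) and *Fev* at -0.86 (interval -1.55 to -0.17, edgeR, adjusted p = 0.998). *Ddc* and *Slc18a2* had the narrowest intervals, from 0.806-fold to 1.12-fold and from 0.786-fold to 1.13-fold of wild type, and that of *Th* reached from 0.743-fold to 1.26-fold. For *Pitx3* the interval reached from 0.216-fold to 4.73-fold, so that little could be seen at this depth. Without both mice of replicate number 3, 0 of 10 passed, against 0% of all genes (edgeR; 1311 of 22402 genes had an unadjusted p under 0.05, 0 of them among the 10), with *Tph2* at -0.08, *Slc6a4* at -0.24 and *Fev* at -0.94.

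**Figure D5:**
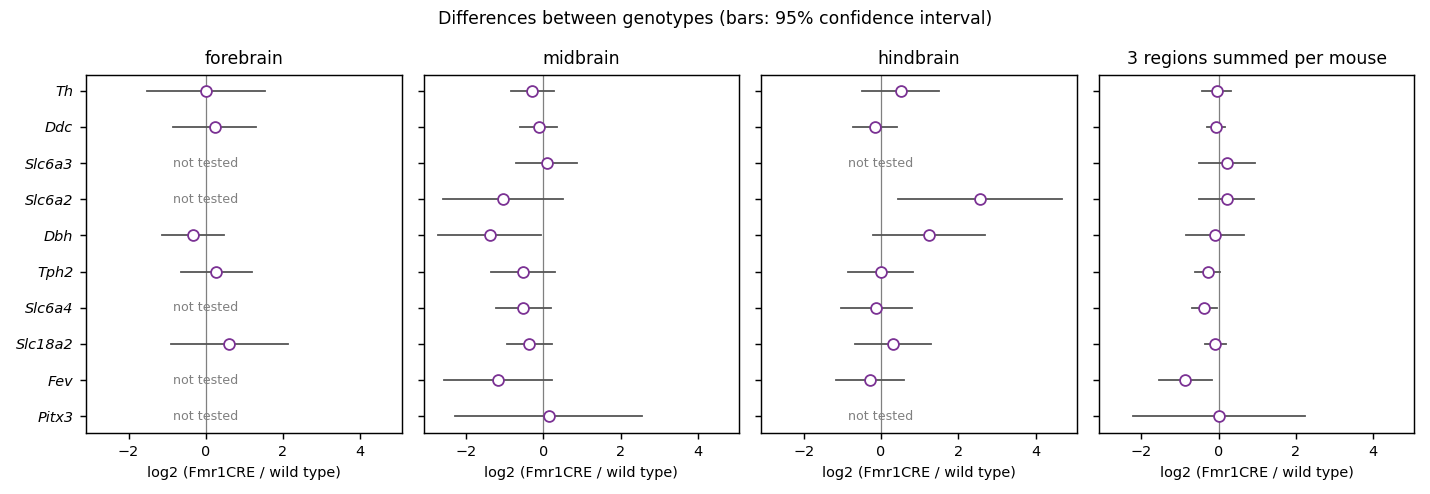
Log2 fold change of *Fmr1*CRE over wild type (horizontal axis) for the 10 genes in each region and in the sum of the 3 regions of a mouse, with 95% confidence intervals, from edgeR with 3 mice against 3. Open points mark that 0 of them had an adjusted p under 0.05, and genes below the filter on low counts are marked as not tested. *Dbh* and *Slc6a2* lie below 0 in midbrain and above 0 in hindbrain.

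Other genes of the pathways were read from lists, with no test of a list as a set. Of all genes tested, 9.96% passed as higher and 9.38% as lower in midbrain than in forebrain. In hindbrain against forebrain these shares were 25.3% and 26.4%, and in midbrain against hindbrain 25.1% and 24%. Median log2 fold changes over all genes were -0.02, 0.01 and -0.03 in these comparisons. Of 6 genes for the cofactor tetrahydrobiopterin, 5 were higher in hindbrain than in forebrain and 0 lower (median log2 fold change 1.31), and 4 were higher in midbrain than in forebrain and 1 lower (median 0.63). *Gch1*, the first enzyme of the cofactor, was higher by 1.59 in midbrain (SE 0.20, edgeR, adjusted p = 5.07e-05) and by 1.42 in hindbrain (SE 0.20, edgeR, adjusted p = 1.65e-05), and *Gchfr*, which regulates it, by 3.17 and 3.86. *Pcbd1*, which recycles the cofactor, was higher by 0.92 and 1.41. Between midbrain and hindbrain 5 of 6 were lower in midbrain and 0 higher, with *Qdpr*, another recycling enzyme, at -0.88, *Gchfr* at -0.69 and *Pcbd1* at -0.49. Of 5 genes of breakdown 2 were higher in midbrain than in forebrain, and 2 were higher and 1 lower in hindbrain than in forebrain. Among them *Maoa* was higher in hindbrain by 0.66 and *Maob* lower by 0.30 (log2 fold change -0.30), and *Aldh1a1*, an aldehyde dehydrogenase, was higher by 1.83. Between midbrain and hindbrain 1 was higher and 2 lower in midbrain, *Maob* at 0.29, *Maoa* at -0.38 and *Aldh1a1* at -1.23.

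Of 15 factors and markers of dopamine neurons 13 were higher in midbrain than in forebrain and 9 were higher and 2 lower in midbrain than in hindbrain, with medians of 2.04 and 1.84. Over all genes 9.96% and 25.1% were higher in midbrain in these comparisons. *En1* and *En2*, homeodomain factors of the midbrain and anterior hindbrain, were higher in midbrain than in forebrain by 6.68 and 4.11, and higher in hindbrain than in forebrain by 4.83 and 4.91. Between midbrain and hindbrain the largest differences were those of the forkhead factors *Foxa1* (4.62, SE 0.59, edgeR, adjusted p = 1.17e-05) and *Foxa2* (4.17, SE 0.63, edgeR, adjusted p = 0.000101) and of the nicotinic subunit *Chrnb3* (3.81, SE 0.39, edgeR, adjusted p = 1.13e-06). *Foxa2* had 112 counts in midbrain and 2 in forebrain, a ratio of 56.0 with an exact 95% interval of 15.1 to 468. That interval covers counting error only, and deposited counts are scaled by transcript length. Between hindbrain and forebrain 6 were higher and 4 lower in hindbrain (median 0.60), where 51.7% of all genes passed. Of 5 serotonin neuron factors 4 were higher in midbrain and 3 in hindbrain than in forebrain, and 2 were higher in midbrain than in hindbrain, with 0 lower in each. *Gata3* was higher by 6.37 in midbrain and 3.94 in hindbrain, *Lmx1b* by 3.44 and 3.97, and *Nkx2-2* by 0.77 in hindbrain. *Foxa2* and *Lmx1b* stand in both lists.

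Among factors of noradrenaline neurons, *Phox2a* was lower in midbrain than in hindbrain, at -2.41 on the log2 scale (SE 0.47, edgeR, adjusted p = 0.000776), and *Insm1* was higher, at 1.78 (SE 0.17, edgeR, adjusted p = 4.03e-07). *Phox2a*, a homeodomain factor, is also used by other neurons, such as cranial motor neurons. It had 120 counts in hindbrain, 20 in midbrain and 3 in forebrain, ratios to forebrain of 39.7 (exact 95% interval 13.3 to 195) and 6.67 (1.98 to 35.0). Both intervals cover counting error only, and deposited counts are scaled by transcript length. *Tfap2b* was higher than in forebrain by 4.70 in midbrain and by 5.26 in hindbrain.

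Of 6 autoreceptor genes 4 were lower in hindbrain than in forebrain and 0 higher, and 4 were higher in midbrain than in hindbrain and 0 lower. Of all genes 26.4% were lower in the first comparison and 25.1% higher in the second. *Drd2*, which many forebrain neurons also express, was lower by 2.35 in hindbrain (log2 fold change -2.35) and lower by 1.40 in midbrain (-1.40) than in forebrain, *Adra2c* had -2.04 and -0.86 and *Htr1d* -0.93 and -1.14. In the comparison of midbrain with forebrain 2 were higher and 3 lower. The serotonin receptor *Htr1a* was higher in midbrain than in hindbrain by 1.14, *Adra2c* by 1.18 and *Drd2* by 0.95. Of 6 other amine enzymes and carriers 2 were higher and 2 lower in hindbrain than in forebrain, *Slc18a1* at 2.70, *Slc22a3* at -1.32 and *Tph1* at -1.74 among them. In this comparison 51.7% of all genes passed. Between midbrain and hindbrain 2 were higher and 2 lower in midbrain, with *Tph1* at 1.62, *Slc18a1* at -1.71 and *Pnmt*, the enzyme that makes adrenaline, at -4.60. The deposited counts of *Pnmt* were 127 in forebrain, 6 in midbrain and 148 in hindbrain, while its summed transcript reads were 58, 9 and 17, so that its fold changes depend on the length scaling. Between midbrain and forebrain 1 was higher, *Slc29a4* at 0.79, and 1 lower, *Pnmt* at -4.57. In the genotype comparisons and the interaction 0 genes of any of these lists passed (edgeR).

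Of the genes, *Slc6a3*, *Tph2* and *Dbh* were used to find others with the same pattern over the 18 libraries, by Pearson's r of log2 CPM among 18127 genes. The libraries share region, mouse and normalization, so that r is given as a description only. The genes nearest to *Slc6a3* were *Rxfp3* (r = 0.946), *Grp* (0.946), *Chrna6* (0.945), *Chrm5* (0.942) and *Amigo2* (0.941), receptors, a neuropeptide and an adhesion protein, with 0 of the other 9 genes among the 50 nearest. Nearest to *Tph2* were *Fev* (0.976), *Pou4f2* (0.969), *Slc6a4* (0.962), *Irx2* (0.960), *Evx2* (0.949), *Gch1* (0.940), *Slc6a2* (0.940) and *En1* (0.938). Nearest to *Dbh* were *Esrrb* (0.955), *Slc6a2* (0.946), *Susd2* (0.945), *Evx2* (0.929), *Tti2* (0.928), *Fev* (0.920), *Tph2* (0.913) and *Arhgef6* (0.913). *Slc6a2* and *Fev* therefore came close to both *Dbh* and *Tph2*, which are used by different neurons.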

How the data were processed

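RNA from 18 libraries (3 regions of 6 mice) was sequenced as single-end reads, and per the labels the authors used the bcbio_nextgen pipeline with Salmon 0.14.0 and mm10. The deposited transcript files hold estimated counts, and the deposited gene table holds whole-number counts. The gene counts follow the transcript abundances scaled by length (at most 0.0453% off in the median) and not the summed reads (2.64% to 5.29% off). Transcript files were joined to gene count columns by this match, because the record they were attached to named the same library for 2 of 18. The next best library was at least 10.3% off. The strand setting of the counting is not given in the sources used here. Another deposited table of transformed values was not used.

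Gene counts were tested with edgeR 4.0.16 (TMM, default filter on low counts, quasi-likelihood test, Benjamini-Hochberg adjustment over all genes tested, threshold 0.05) in R 4.3.3, with DESeq2 1.42.0 as an alternative, and the fits were tested on simulated data. Regions were compared over all 18 libraries without a block, and genotypes within a region over 6. Correlations and ratios used two-sided exact permutation tests. The 3 regions of a mouse share an animal, given by the sample titles (correlations of deviations from -0.17 to 0.18). Replicate numbers do not pair the genotypes (-0.12 to 0.07). The text names all 10 genes, from each pathway list up to 3 passing genes with the largest change in each region comparison, and the 5 genes outside the 10 that lie nearest to *Slc6a3*, *Dbh* and *Tph2*, with any of the 10 ranked among them. For the list of noradrenaline neuron factors, 1 result and the counts over the list are not reported here. The genes, lists and tests were chosen with earlier results of these data known. Alternatives included other filters, size factors, a block, each library left out, and, chosen after seeing the data, summed transcript reads and leaving out midbrain and hindbrain of *Fmr1*CRE replicate 2 or, for the genotype, both forebrain libraries or both mice of number 3.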

Additional observations from a re-analysis of the deposited data

Results flagged for a closer look

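In 9 of 24 groups of 6 libraries (1 gene in 1 region) the highest or lowest library stood farther from the others than Dixon's critical value of 0.625 allows. Chance does this in about 1 in 20 groups, and the genes and libraries are not independent. *Fmr1*CRE replicate 3 was far above the others in forebrain for *Slc6a3* (8.35 CPM, next 0.440 CPM), *Ddc* (19.6 CPM, next 10.4 CPM) and *Slc18a2* (5.62 CPM, next 2.30 CPM). This is 1 of the 2 forebrain libraries of replicate number 3, between which more genes went against the other regions than with them.

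*Fmr1*CRE replicate 2 was far above the others in hindbrain for *Slc6a2* (17.0 CPM, next 2.31 CPM), *Dbh* (15.1 CPM, next 3.66 CPM) and *Slc18a2* (31.4 CPM, next 17.2 CPM). In midbrain it was far below them for *Tph2* (8.95 CPM, next 23.9 CPM) and *Slc6a4* (6.33 CPM, next 14.6 CPM). *Tph2* of *Fmr1*CRE replicate 1 in forebrain (3.44 CPM, next 1.84 CPM) was the remaining one. Its count of 87 rests on 45 summed transcript reads, with a mean effective length of 1077 bases, while the other 5 forebrain libraries held 35 to 49 reads at 2135 to 2166 bases. The cause of the other values was not tested.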

How the results depend on the processing

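Of the 10 genes, 10 passed for midbrain against forebrain, and 4 with *Fmr1*CRE libraries only or at least 10 counts in every library. For hindbrain against forebrain 3 passed with that filter. For midbrain against hindbrain 1 passed with *Fmr1*CRE libraries only and 2 with that filter. A stricter filter removes low genes from the test, and either genotype alone leaves 9 libraries. With *Fmr1*CRE libraries only, *Th*, *Ddc*, *Slc6a3*, *Slc6a2* and *Dbh* no longer passed for midbrain against forebrain (edgeR, adjusted p from 0.0708 to 0.127). With wild-type libraries only, none of these genes lost its call in that comparison. The reason for this difference was not tested. Genes passing in all were 527 (*Fmr1*CRE only) and 1729 (wild type only) for midbrain against forebrain, 6178 (*Fmr1*CRE only) for hindbrain against forebrain and 4847 (*Fmr1*CRE only) for midbrain against hindbrain. For the genotype, DESeq2 passed 31 genes in forebrain, 62 in midbrain, 59 in hindbrain, 26 in the sums and 52 for the interaction. With no filter these were 11 in midbrain, 11 in hindbrain, 4 in the sums and 7 for the interaction. In midbrain 0 passed with at least 10 counts, and with summed transcript reads 2 passed in midbrain, 1 in hindbrain and 0 in the sums. Without both forebrain libraries of number 3, 4 passed for the interaction, and without both mice of number 3, 0 passed in the sums. The cause was not tested. With the replicate block 0 passed in the sums, and with the mouse as a block 10, 7 and 6 of the 10 genes passed in the 3 region comparisons.

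The unpaired test of the ratios ignores the pairing of regions by mouse, so no conclusion is drawn from it. With no replicate block, 6 ratio differences passed at the same values: 0.42 for *Slc6a4* to *Tph2*, 1.13 for *Slc6a2* to *Dbh* and -1.09 for *Ddc* to *Th* between midbrain and hindbrain, and 1.97, 1.47 and 0.50 for *Slc18a2* to *Ddc*. Summed reads gave 4 midbrain and 5 hindbrain pairs. By the longest transcript, 2, 2 and 5 genes took another rank in forebrain, midbrain and hindbrain.

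With each library left out in turn, genes passing for the genotype ranged from 0 to 0 in forebrain, 0 to 4 in midbrain, 0 to 5 in hindbrain, 0 to 0 in the sums and 0 to 3 for the interaction. Between regions they ranged from 3045 to 4807, 9869 to 10787 and 9074 to 10396, and the 10 genes from 10 to 10, 7 to 8 and 4 to 9. No value of the 10 genes that passed changed sign. Depth limits *Pitx3* and *Fev* most, with at most 11 and 41 reads in a library.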

Other observations

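Markers of other tissues were followed as well. The 5 olfactory bulb genes summed to between 11.5 and 25.9 CPM in forebrain, 10.1 and 16.3 CPM in midbrain and 7.83 and 16.5 CPM in hindbrain. The 6 pineal genes, a list that shares *Tph1* with the amine enzymes, summed to between 1.02 and 5.88 CPM in forebrain, 1.63 and 2.88 CPM in midbrain and 3.30 and 7.20 CPM in hindbrain.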
